A study of Mus musculus with 12 samples.

Results

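The results below concern 10 genes that encode secreted proteins of the Wnt pathway, measured by bulk RNA-seq of rectal tissue (colorectum in the labels). The genes were chosen by name: the Wnt ligands Wnt2b, Wnt4, Wnt5a and Wnt5b, the R-spondins Rspo1 and Rspo3, and the secreted Wnt inhibitors Sfrp1, Sfrp2, Frzb and Dkk3. All 10 were found among the 17734 genes listed and all 10 were among the 15315 genes tested. The libraries came from 12 C57BL/6 mice, 3 in each of 4 groups: normal mice on water, normal mice receiving BBR, colitis mice, and colitis mice that also received BBR. To induce colitis, 2.5% dextran sulphate sodium (DSS), a polymer that damages the colonic epithelium, was added to the drinking water for 7 days. BBR is berberine, a plant alkaloid, of which 100 mg/kg was gavaged daily. The mice were male and 8 to 10 weeks old, no transgene or engineered allele is named in the labels, and each library is 1 mouse, numbered within its group from 1 to 4. BBR was given while the mice drank DSS, for 6 days by the labels' protocol.

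Wnt ligands are lipid-modified proteins that act over short distances on Frizzled receptors and the co-receptors Lrp5 and Lrp6. In the canonical branch they stabilise β-catenin, which drives the growth of stem cells at the base of intestinal crypts, whereas Wnt5a is best known for β-catenin-independent signalling. R-spondins strengthen Wnt signals by binding Lgr receptors and removing the ubiquitin ligases Rnf43 and Znrf3, which otherwise clear Frizzled receptors from the cell surface. Sfrp1, Sfrp2 and Frzb bind Wnt ligands outside the cell and Dkk3 is a divergent member of the Dickkopf family. In the gut most of these genes are expressed by stromal cells beneath the epithelium.

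Values are read as FPKM, fragments scaled to transcript length and to the mapped reads of the library, which sets levels of different genes on 1 scale. The unit was inferred from the values. The mice numbered 4, 1 in each group, stood apart: their values summed to between 482194 and 504337 FPKM against 696286 to 765876 in the other 8 mice. The smallest steps between values of genes with a single annotated transcript place the level of 3 reads on a transcript of 2000 bases at 0.0761 to 0.0856 FPKM in the mice numbered 4 and at 0.113 to 0.128 FPKM in the others. This floor covers counting error only. Of the 120 values of the 10 genes, 2 fell below the highest of these floors, both of Rspo1. Columnar epithelium markers were high in all 4 groups, with summed levels of 9592 to 18483 FPKM. The 7 squamous markers summed to 0.74 to 7.67 FPKM. Krt4, Krt5 and Trp63 among them had means under 0.1 FPKM, whereas Krt13 averaged 0.590 FPKM in normal mice and 2.75 in colitis mice. Krt6a was at 0 in every normal mouse and at 0.14 to 0.97 in colitis mice. Of the 4 tested, 2 were higher in colitis at an unadjusted P of at most 0.05, beside 5.56% of all genes. The part of squamous markers in the results below was not tested. In bulk tissue, fewer cells of a type and less RNA per cell cannot be told apart.

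In normal mice the inhibitors Dkk3 and Sfrp1 had the highest levels of the 10 genes. Dkk3 stood at 10.3 ± 2.69 FPKM (SD, n = 3) and Sfrp1 at 6.00 ± 1.78 FPKM, and the ranges of Dkk3 and Sfrp1, and of Sfrp1 and the next gene, did not overlap. Sfrp2, Rspo3, Wnt5a, Wnt2b, Frzb, Wnt4 and Wnt5b followed with means from 2.88 down to 1.03 FPKM, and each of these overlapped its neighbour in the order. Rspo1 was lowest, at 0.280 ± 0.282 FPKM, below every value of Wnt5b. In colitis mice the highest mean was that of Sfrp1, at 9.64 ± 7.29 FPKM, and every gene overlapped its neighbour.

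**Figure D1:**
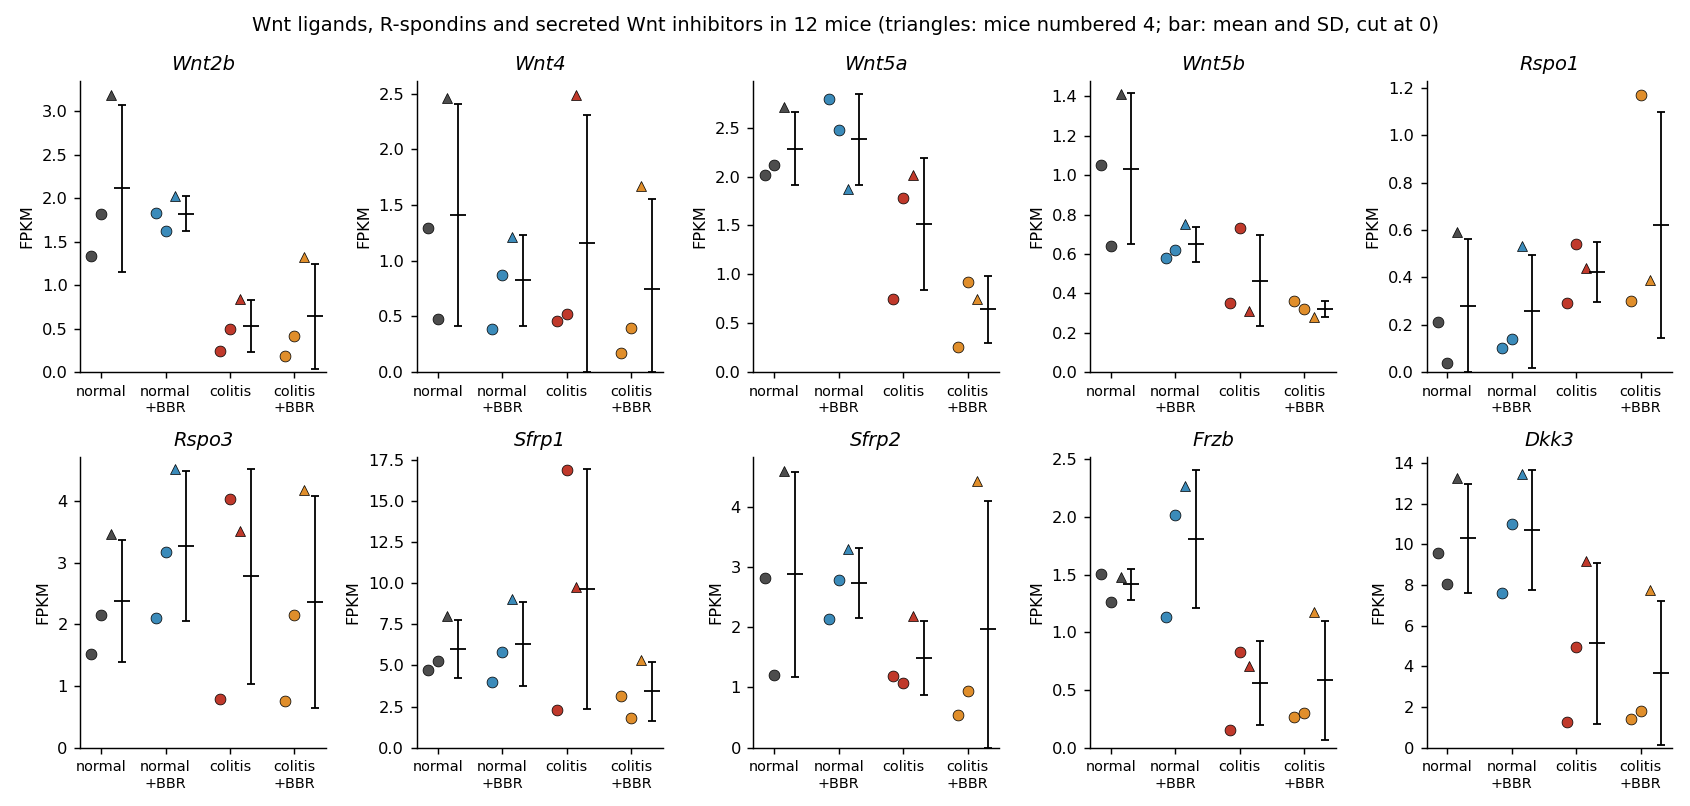
FPKM of each gene (vertical axis, starting at 0) in the 12 mice, grouped along the horizontal axis; circles are mice numbered 1 to 3, triangles mice numbered 4, and bars the group mean with the SD of 3 mice, drawn no lower than 0. In Wnt2b and Frzb the 3 colitis mice lie below the 3 normal mice, and in Sfrp1 the colitis mice span 2.30 to 16.87 FPKM.

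The first question was whether colitis alters the expression of these secreted proteins. None of the 10 genes passed an adjusted p of 0.05 in colitis mice against normal mice (limma on log2(FPKM + 0.1) over all genes tested, Benjamini-Hochberg adjustment), while 1.08% of all genes did. The study's methods used an unadjusted P of at most 0.05, and at that limit Wnt2b, Wnt5b and Frzb were lower and no gene was higher. Over all genes tested, 21.4% passed that limit, 15.9% lower and 5.56% higher, so 3 of 10 lower stands beside 15.9%. That split depends on the scaling: lower genes made up 74.0% of those past the limit, 50.5% after quantile normalization and 46.3% after median centring, where Wnt2b and Frzb stayed lower at it. In a fit of these 2 groups alone, 2 of the 10 were lower at the unadjusted limit, beside 16.5% of all genes. In all, 7 of the 10 genes had a lower mean on the log2 scale, against 73.7% of all genes. Their median log2 fold change was -0.72 and that of all genes was -0.32. Because the median of all genes lay below 0, the fold changes of Wnt2b and Frzb below are also given relative to that median.

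Wnt2b, a ligand of the canonical branch, had the largest difference of the 10. Its values were 1.33, 1.82 and 3.19 FPKM in normal mice and 1.83, 1.62 and 2.02 in those given BBR. Colitis mice had 0.24, 0.50 and 0.84 FPKM, and those receiving BBR 0.18, 0.42 and 1.32. Every colitis mouse, with or without BBR, was below every mouse without DSS. The log2 fold change in colitis against normal was -1.85 (SE 0.58), a mean 4.01-fold lower, with an adjusted p = 0.116 in limma. Relative to the median of all genes it was -1.53. Wnt2b passed the adjusted limit in 2 alternatives: when the mice numbered 4 formed a separate block (adjusted p = 0.0250, limma) and without the colitis mouse 4 receiving BBR (adjusted p = 0.0407, limma). In these fits 9.22% and 5.34% of all genes passed it. The difference was -1.81 between the mice numbered 4 alone and -1.88 among the others. The exact permutation test of 3 mice against 3, two-sided, gave p = 0.1, the smallest it can give.

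Frzb, an inhibitor of the secreted Frizzled-related family, did not overlap either. Normal mice had 1.51, 1.26 and 1.48 FPKM, and normal mice receiving BBR had 1.13, 2.02 and 2.27. Colitis mice had 0.15, 0.83 and 0.71 FPKM, and those receiving BBR had 0.27, 0.30 and 1.18. The log2 fold change in colitis was -1.40 (SE 0.58, adjusted p = 0.198 in limma), or -1.08 relative to the median gene. Leaving out colitis mouse 1, the lowest, took it to -0.80, short of the unadjusted limit. Leaving out any 1 of the 3 normal mice did the same for the limit, at -1.48 to -1.35. Groups that did not overlap, with colitis lower, made up 22.2% of all genes, and 2 of the 10 genes, Wnt2b and Frzb, were of this kind.

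Wnt5b is a ligand of the β-catenin-independent branch and the closest relative of Wnt5a. It had 1.05, 0.64 and 1.41 FPKM in normal mice and 0.35, 0.73 and 0.31 in colitis mice. The groups overlapped through normal mouse 3 and colitis mouse 2. Its log2 fold change was -1.02 (SE 0.38, adjusted p = 0.162 in limma). It missed the unadjusted limit after median centring (-0.69) and after quantile normalization (-0.60), so its place among the 3 lower genes depends on the scaling. It also missed it when mouse 1 or mouse 4 of either group was left out, at -0.98 to -0.79. The difference was -1.88 between the mice numbered 4 and -0.59 among the others, short of the limit.

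Promoter sequences in RefSeq (GRCm38.p6) were found for 6 of the 10 genes, in 8 windows of the 250 bases before a start, because Wnt5b has 3 starts. The FPKM value of Wnt5b sums over them. The first and the last start of Wnt5b are shown because they differ in the motifs they hold. The middle window holds none of the motifs named below and is not shown. None of the 3 windows overlaps an annotated exon. Capitals mark the GC box GGGCGG, bound by Sp-family factors, and the TCF motif CTTTGAT, through which β-catenin acts on its targets, each on either strand. The motifs share no letters with each other in these windows. The first lies at chr6:119544348-119544597 and the last at chr6:119449387-119449636, both on the minus strand and written 5′ to 3′.
Wnt5b first start: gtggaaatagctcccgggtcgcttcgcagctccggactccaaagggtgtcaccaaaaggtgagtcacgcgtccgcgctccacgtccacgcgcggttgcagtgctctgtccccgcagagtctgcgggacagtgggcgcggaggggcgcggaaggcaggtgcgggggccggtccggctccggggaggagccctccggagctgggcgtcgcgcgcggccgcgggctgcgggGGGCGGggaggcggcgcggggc
Wnt5b last start: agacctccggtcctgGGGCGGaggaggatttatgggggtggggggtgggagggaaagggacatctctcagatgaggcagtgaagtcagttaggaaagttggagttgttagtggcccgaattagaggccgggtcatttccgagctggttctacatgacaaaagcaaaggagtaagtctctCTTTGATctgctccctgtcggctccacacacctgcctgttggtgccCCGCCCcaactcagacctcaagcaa
The first window is 75.2% G and C and the last 55.6%, where the median of all windows is 52.4%. The TCF motif stood in 1 of the 8 windows, the last one of Wnt5b, and in 3.21% of all 32851 promoter windows. The GC box stood in 5 of the 8, those of Wnt2b, Frzb and Wnt4 and the pair shown, and in 32.7% of all windows. In GENCODE M21 transcripts of Frzb, Wnt2b and Wnt4 start upstream of these RefSeq starts, so those 3 windows may hold transcribed sequence. The E-box CACGTG, read by circadian factors among others, stood in 0 of the 8 and in 6.02% of all. A match says only that these letters are there.

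The other ligands, Wnt5a and Wnt4, overlapped between colitis and normal mice. Wnt5a, the leading β-catenin-independent ligand, had 2.02, 2.12 and 2.71 FPKM in normal mice and 0.75, 1.78 and 2.02 in colitis mice, where mouse 1 was low (log2 fold change -0.65, 95% interval -1.64 to 0.33). Wnt4 had 1.29, 0.48 and 2.46 FPKM in normal mice and 0.46, 0.52 and 2.49 in colitis mice (-0.40, -2.17 to 1.37). In both groups the mouse numbered 4 held the highest Wnt4 value. Added up, the 4 ligands reached 5.06 to 9.77 FPKM in normal mice and 5.59 to 5.85 in those given BBR. The sums were 1.80 to 5.66 FPKM in colitis mice, and with BBR they were 0.97 to 4.02.

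Neither R-spondin had a lower mean on the log2 scale in colitis, but the sign of Rspo3 was not stable. Rspo3, the R-spondin with the higher level here, had 1.52, 2.15 and 3.46 FPKM in normal mice and 0.79, 4.04 and 3.51 in colitis mice (log2 fold change 0.012, 95% interval -1.45 to 1.47). Colitis mouse 1 was the lowest of these and colitis mouse 2 the highest. The sign of Rspo3 turned in 5 of 23 alternatives, down to -0.39 when 1 mouse was left out. Rspo1 had 0.21, 0.04 and 0.59 FPKM in normal mice and 0.29, 0.54 and 0.44 in colitis mice (0.72, -0.70 to 2.15). The value of 0.04 lies below the floor of that library.

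The remaining inhibitors differed in direction. Dkk3 had 9.56, 8.05 and 13.27 FPKM in normal mice and 1.27, 4.93 and 9.19 in colitis mice, overlapping only through mouse 4 of the colitis group (log2 fold change -1.35, SE 0.69, adjusted p = 0.270 in limma). Without the mice numbered 4 the difference in Dkk3 was -1.76 (adjusted p = 0.0948 in limma), past the unadjusted limit. Sfrp2 had 2.82, 1.21 and 4.60 FPKM in normal mice and 1.19, 1.08 and 2.19 in colitis mice (-0.79, 95% interval -2.24 to 0.66). Sfrp1 had 4.70, 5.27 and 8.03 FPKM in normal mice and 2.30, 16.87 and 9.75 in colitis mice (0.31, -1.06 to 1.69). Its sign rests on colitis mouse 2: without it the difference was -0.29. Without colitis mouse 1, the lowest, it was 1.12 and past the unadjusted limit. The summed level of the 4 inhibitors was 2.80 to 3.27 times that of the 4 ligands in normal mice and 2.73 to 6.72 times in colitis mice. With BBR the ratio was 2.67 to 4.81 in normal mice and 2.35 to 5.56 in colitis mice. This ratio covers only the RNA of the genes named and does not measure a balance of Wnt signals.

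Markers of stromal and other cells were counted in the same comparison, where 73.7% of all genes had a lower mean and 15.9% were lower at the unadjusted limit. Smooth muscle markers had a lower mean in colitis for 14 of 14 genes, 12 of them past the unadjusted limit, with summed levels of 2245 to 4215 FPKM in normal mice and 142 to 983 in colitis mice. Of 14 fibroblast markers 11 had a lower mean, 4 past that limit, and 3 a higher one, with summed levels of 450 to 683 FPKM against 257 to 919. Gli1 and Foxl1, which mark the fibroblasts next to the epithelium that are known to secrete Wnt ligands, did not overlap, as was the case, with colitis lower, for 22.2% of all genes: Gli1 had 1.39 to 2.51 FPKM in normal mice and 0 to 0.45 in colitis mice, and Foxl1 had 0.43 to 0.80 and 0.07 to 0.27. This pair was named after its values were seen. Gli1 and Foxl1 were each at 0 in 1 of the 12 mice and no other fibroblast marker was at 0. The 9 leukocyte markers summed to 13.6 to 32.0 FPKM in normal mice and to 63.8 to 511 in colitis mice, with 5 higher at the unadjusted limit. Endothelial markers had a lower mean in 6 of 7 genes, 3 past the limit (median -1.12), and enteric neuron and glia markers in 8 of 10, 2 past it, with 1 higher. The part of these markers in the differences of the 10 genes was not tested. The high Sfrp1 and Rspo3 values of colitis mouse 2 stood beside the highest fibroblast sum of the 12 mice, 919 FPKM, in which Col3a1 was 178.84, Dcn 406.72 and Grem1, a secreted inhibitor of bone morphogenetic proteins, 44.73 FPKM. That mouse also had the highest sums of endothelial (46.4 FPKM), enteric neuron and glia (43.5), mesothelial (12.3), leukocyte (511) and squamous markers (7.67) of the 12 mice.

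**Figure D2:**
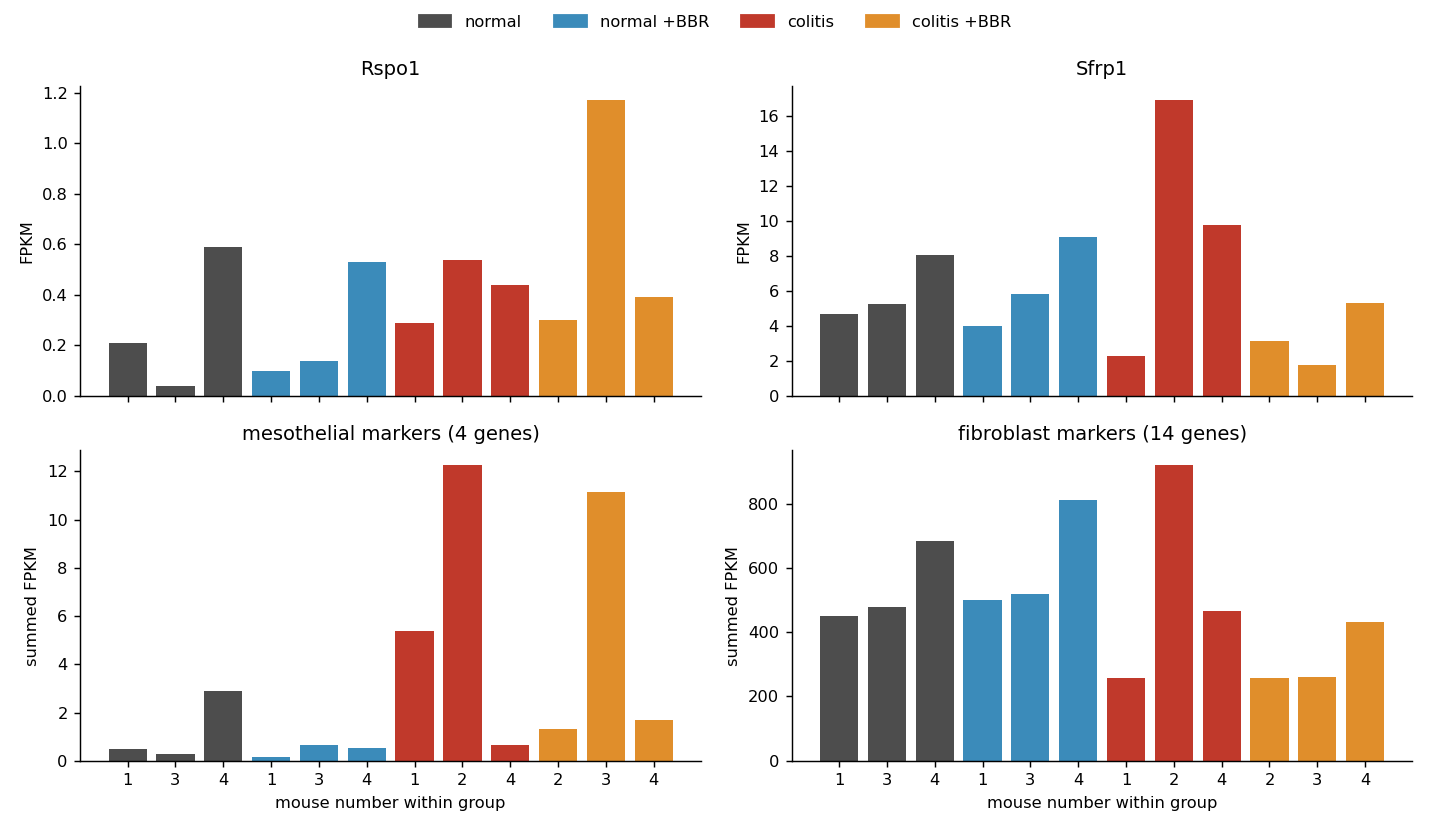
FPKM of Rspo1 and Sfrp1 (upper panels) above the summed FPKM of mesothelial and fibroblast markers (lower panels) in each of the 12 mice, labelled by number and coloured by group; all axes start at 0. Sfrp1 and the fibroblast sum are both highest in colitis mouse 2, and Rspo1 is highest in colitis mouse 3 receiving BBR, where the mesothelial sum is 11.2 FPKM; that sum is highest, at 12.3 FPKM, in colitis mouse 2, where Rspo1 is 0.54 FPKM.

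The second question was whether BBR raises these genes in colitis. No gene of the 10 was higher in colitis mice receiving BBR than in colitis mice at either limit. Wnt5a was lower at the unadjusted limit, and 5.2% of all genes were lower there and 1.19% higher. None of the 10 and 0 of the 15315 genes tested passed the adjusted limit in limma, while 978 genes, 6.39%, passed the unadjusted one. Of these 796 were lower, but after quantile normalization and median centring the lower share was 56.5% and 53.9%, and Wnt5a stayed lower at the limit under both. Of the 10 genes 7 had a lower mean on the log2 scale, beside 62% of all genes, and the median was -0.29 beside -0.092 for all genes. All 10 genes overlapped between these groups, while 5.66% of all genes did not and were lower.

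Wnt5a had 0.75, 1.78 and 2.02 FPKM in colitis mice, against 0.26, 0.92 and 0.75 with BBR. Colitis mouse 1 fell among the treated mice and the other colitis mice lay above them all. The log2 fold change was -1.15 (SE 0.45), a mean 2.36-fold lower, with an adjusted p = 0.680 in limma. It missed the unadjusted limit in a fit of these 2 groups alone, without colitis mouse 2 (-0.98), without colitis mouse 4 (-0.90), without mouse 2 receiving BBR (-0.69) and without the 4 mice numbered 4 (-1.06). The sign was the same in each of the 23 alternatives, from -1.56 to -0.60, and the adjusted p ranged from 0.260 to 1. In normal mice the Wnt5a difference with BBR was 0.050 (95% interval -0.94 to 1.04), and the interaction of BBR and colitis was -1.20 (SE 0.64, adjusted p = 1.00 in limma). The Wnt5a interaction passed the unadjusted limit without colitis mouse 1 (-1.61) and without mouse 3 receiving BBR (-1.49), and its adjusted p stayed above 0.05 in each alternative.

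Sfrp1 had 2.30, 16.87 and 9.75 FPKM in colitis mice, against 3.15, 1.79 and 5.32 with BBR, a log2 fold change of -1.20 (SE 0.63, adjusted p = 0.869 in limma). Without colitis mouse 2 it was -0.60. It passed the unadjusted limit with the replicate number as a block (-1.39), without colitis mouse 1 (-2.01) and without mouse 4 receiving BBR (-1.57). Fibroblast markers had a lower mean in 13 of 14 genes in the same comparison, beside 62% of all genes, 1 of them past the unadjusted limit (Pdgfra, -1.14), beside 5.2%, with summed levels of 258 to 431 FPKM in colitis mice receiving BBR. Smooth muscle markers had a higher mean in 14 of 14 genes, beside 38% of all genes, none past that limit, with a median of 1.16. Their sum was 4492 FPKM in mouse 4 receiving BBR. In mice 2 and 3 receiving BBR it was 701 and 669 FPKM, within the colitis range of 142 to 983. Leukocyte sums were 18.9 to 237 FPKM in colitis mice receiving BBR, lowest in mouse 4. The part of these cell markers in the Wnt5a and Sfrp1 values was not tested.

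For the other genes the difference was small beside its interval. Wnt2b differed by 0.036 (95% interval -1.22 to 1.29) and Frzb by 0.0028 (-1.26 to 1.27), so changes of up to about those bounds in either direction were not detectable with 3 mice a group. Dkk3 had 1.43, 1.81 and 7.76 FPKM in colitis mice receiving BBR (-0.49, -2.01 to 1.02). Wnt4 had 0.17, 0.40 and 1.67 (-0.64, -2.40 to 1.13), and Wnt5b had 0.36, 0.32 and 0.28 (-0.35, -1.18 to 0.48). Sfrp2 had 0.54, 0.94 and 4.42 FPKM (-0.071, -1.52 to 1.38), where mouse 4 alone was high. Rspo3 had 0.75, 2.16 and 4.18 FPKM (-0.23, -1.69 to 1.23).

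Rspo1 was highest of all 12 mice in colitis mouse 3 receiving BBR, at 1.17 FPKM, and the other colitis mice receiving BBR had 0.30 and 0.39. Of 4 mesothelial markers, Upk3b, Wt1 and Lrrn4 were also highest in that mouse, at 5.50, 1.11 and 1.59 FPKM, and the fourth, Msln, stood at 2.96 FPKM. Msln was higher in colitis mice 1 and 2, at 5.25 and 12.01 FPKM, so the sum of the 4 was highest in colitis mouse 2 (12.3 FPKM), with Rspo1 at 0.54, and reached 5.40 FPKM in colitis mouse 1, with Rspo1 at 0.29. The mesothelium is the outer lining of the gut wall. Summed mesothelial levels were 0.28 to 2.90 FPKM in normal mice and 0.15 to 0.65 in those given BBR. In colitis mice they were 0.65 to 12.3 FPKM, and with BBR they were 1.31 to 11.2. With BBR in colitis 3 of the 4 had a higher mean, beside 38% of all genes, and Msln a lower one (-1.47). Upk3b (2.91) and Lrrn4 (1.70) were past the unadjusted limit, beside 1.19% of all genes higher. For the interaction Upk3b, Lrrn4 and Wt1 were higher past that limit, beside 0.699% of all genes. None of the 4 passed the adjusted limit in either. Wt1 was at 0 in 3 mice, Lrrn4 in 2 and Upk3b in 1, all without DSS. Without that mouse the Rspo1 difference between colitis mice with and without BBR turned from 0.30 to -0.21. The part of mesothelial tissue in the Rspo1 value was not tested.

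In colitis mice receiving BBR against normal mice, 5 of the 10 genes were lower at the unadjusted limit, beside 18.3% of all genes, and none was higher, beside 1.84% (20.1% in either direction). None passed the adjusted limit in limma, beside 0.0196% of all genes, and 9 of 10 had a lower mean, beside 81.1%. The 5 were Wnt5a at -1.80 (SE 0.45), Wnt5b at -1.38, Wnt2b at -1.82, Dkk3 at -1.84 and Frzb at -1.40 on the log2 scale, with adjusted p from 0.199 to 0.230 in limma. The same 5 genes did not overlap between the groups, beside 20.8% of all genes. Wnt5a was 3.55-fold lower in mean and Wnt5b 3.23-fold. The median of the 10 was -1.21 and that of all genes -0.42. After median centring, Wnt2b, Wnt5a and Dkk3 remained lower at the unadjusted limit, at -1.33, -1.31 and -1.35, and Rspo1 was higher at 1.51. Over all genes, 2796 of the 3078 past that limit were lower, while after quantile normalization and median centring the lower share was 48.5% and 39.5%. This comparison shares its mice with both comparisons above. It also rests on the mice numbered 4: without colitis mouse 4 receiving BBR, 5 of the 10 genes passed the adjusted limit in limma, beside 18.9% of all genes in that fit, namely Wnt2b (adjusted p = 0.0183), Wnt5a, Sfrp2, Frzb and Dkk3. Without all 4 mice of that number, Wnt2b and Dkk3 passed it (adjusted p = 0.0346 and 0.0427 in limma), 2 of 10 beside 14.1% of all genes. At the unadjusted limit, the 5 lower genes became 3 without normal mouse 4, without mouse 2 receiving BBR or without mouse 3 receiving BBR, 7 without mouse 4 receiving BBR, and 3 under either scaling.

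Cell markers in the same comparison are read beside the 81.1% of all genes with a lower mean and the 18.3% lower at the unadjusted limit. Fibroblast markers had a lower mean in 14 of 14 genes, 7 of them past the unadjusted limit, with a median of -1.07. Smooth muscle markers had a lower mean in 14 of 14, none past that limit, with a median of -1.28. Endothelial markers had one in 7 of 7, 3 past it (median -1.04), and enteric neuron and glia markers in 8 of 10, none past it. Of 9 leukocyte markers 4 were higher past the limit, beside 1.84% of all genes, and 1 was lower. Mesothelial markers had a higher mean in 4 of 4, none past it (median 1.25). The part of these markers in the lower values of the 5 genes was not tested.

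**Figure D3:**
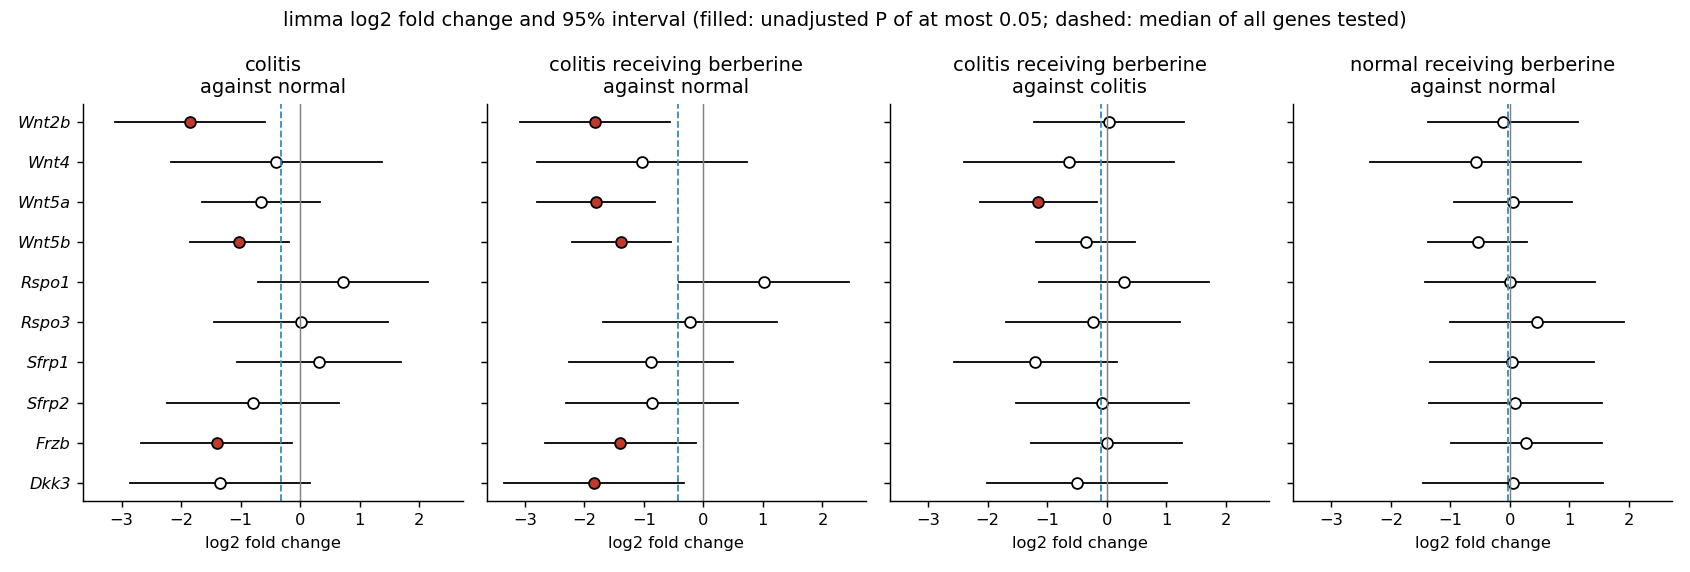
log2 fold change (horizontal axis) with its 95% interval for each gene in 4 comparisons; filled points have an unadjusted P of at most 0.05 in limma, the grey line is 0 and the dashed line is the median of all genes tested. Colitis mice receiving BBR show 5 filled points to the left of 0 against normal mice, and only Wnt5a is filled against colitis mice.

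In normal mice receiving BBR against normal mice, none passed the unadjusted limit, beside 1.36% of all genes, and the log2 fold changes ran from -0.58 for Wnt4 to 0.45 for Rspo3. None of the 10 and none of all genes passed the adjusted limit in limma, and 208 genes passed the unadjusted one. Read as pairs by number, Rspo3 was higher with BBR in 3 of 3 pairs, by 0.44, 0.54 and 0.38 on the log2 scale, and Wnt5b was lower in 3 of 3, at -0.76, -0.040 and -0.83. The other 8 genes had pairs of both signs, and 13.3% of all genes were higher and 13.9% lower in 3 of 3. Neither gene passed the unadjusted limit with the number as a block. Mice numbered 1 and 3 were no more alike matched than crossed (correlations of 0.290 and 0.109 against 0.366 and 0.456). These pairs are therefore not established. Wnt4 had 0.39, 0.87 and 1.21 FPKM in normal mice receiving BBR, Wnt5b 0.58, 0.62 and 0.75, and Wnt5a 2.79, 2.48 and 1.87. Dkk3 had 7.62, 10.99 and 13.47 FPKM, Sfrp1 4.02, 5.81 and 9.07, and Sfrp2 2.13, 2.78 and 3.30. Rspo3 had 2.10, 3.18 and 4.52 FPKM and Rspo1 0.10, 0.14 and 0.53. In every one of the 10 except Wnt5a the mouse numbered 4 held the highest value of this group. The interaction of BBR and colitis passed neither limit for any of the 10, beside 2.42% of all genes at the unadjusted one. For Sfrp1 it was -1.23 and passed the unadjusted limit with the replicate number as a block (-1.42) and without colitis mouse 1 (-2.04).

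The other parts of the pathway were read from lists of genes. Among 15 other Wnt ligands, 11 were listed and 6 passed the filter on low values. Among the 5 that did not, Wnt9b, Wnt10a and Wnt16 stayed at or under 0.28 FPKM in every mouse. At the unadjusted limit 1 of the 6 was lower in colitis, Wnt8b, with 1.04, 2.81 and 1.32 FPKM in normal mice and 0.19, 0.04 and 0.23 in colitis mice (log2 fold change -2.82, adjusted p = 0.102 in limma). Wnt8b passed the adjusted limit in 4 of 23 alternatives (lowest adjusted p = 0.0147 in limma). In colitis mice receiving BBR, Wnt8b had 0.96, 0.06 and 2.31 FPKM, mouse 3 staying with the colitis mice. The values of 0.04 and 0.06 lie below the floor of every library. With BBR in colitis the log2 fold change of Wnt8b was 1.64, the highest of the 6, and passed neither limit. Wnt2, Wnt6, Wnt10b and Wnt11 lay between -1.08 for Wnt6 and 0.36 for Wnt11 in colitis, and between -0.28 and 0.37 with BBR in colitis. None of these passed a limit. In colitis mice Wnt2 fell to 0.03 FPKM and Wnt10b to 0.05, below the floor of every library. Among 13 other R-spondins and inhibitors, 6 passed the filter and none passed a limit in colitis or with BBR in colitis. The highest of these were Sfrp4, with colitis mice at 0.26 to 2.47 FPKM, and Wif1, at 0.90 to 2.63 FPKM, beside normal mice at 1.00 to 2.29 and 0.65 to 1.05 FPKM.

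Both genes that Wnt secretion needs were measured. Porcn, which attaches the lipid to Wnt ligands, was lower in colitis at the unadjusted limit (-0.78, adjusted p = 0.219 in limma). Wls, which carries Wnt ligands to the cell surface, had 52.95, 37.85 and 46.43 FPKM in normal mice and 42.26, 26.49 and 43.14 in colitis mice (-0.31, adjusted p = 0.591 in limma). In colitis mice receiving BBR, Wls had 13.33, 21.51 and 42.52 FPKM, with mice 2 and 3 below all others.

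On the receiving side, 6 of 17 Frizzled receptors and co-receptors were lower and 1 higher in colitis at the unadjusted limit, beside 15.9% and 5.56% of all genes. Fzd2 had the largest difference, with 2.54, 1.67 and 4.80 FPKM in normal mice and 0.12, 0.44 and 1.31 in colitis mice (-2.36, adjusted p = 0.155 in limma). Lrp6, a co-receptor of canonical signalling, had 21.1 to 23.4 FPKM in normal mice and 7.03 to 14.3 in colitis mice (-1.05, adjusted p = 0.118 in limma). Fzd2 passed the adjusted limit in 3 of 23 alternatives and Lrp6 in 2 (lowest adjusted p = 0.0207 and 0.0376 in limma). Ryk, a co-receptor, had 17.9 to 21.2 FPKM in normal mice and 11.3 to 18.0 in colitis mice, without passing a limit. Fzd1 was the higher one (0.81, adjusted p = 0.217 in limma). With BBR in colitis none of the 17 passed a limit.

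Lgr5, the R-spondin receptor that marks crypt stem cells, was the 1 gene of these lists that passed the adjusted limit in colitis in the main fit. It had 0.87, 1.41 and 1.27 FPKM in normal mice and 0, 0.01 and 0.25 in colitis mice (adjusted p = 0.0367 in limma), so 2 of the 3 colitis values lay below the floor. In colitis mice receiving BBR it had 0.01, 0 and 0.22 FPKM, and in normal mice receiving BBR 0.54, 0.99 and 0.47. The adjusted p of Lgr5 ranged from 0.0120 to 0.146 over 22 alternatives, and it missed the limit in 9 of them, among these the fits without any 1 normal mouse, without colitis mouse 1 or without colitis mouse 2. Wnt8b, Axin2, Fzd2, Lrp6 and Ascl2 passed it in 2 to 4 of 23 alternatives each. Over the alternatives 11 to 1412 of all genes passed it. Lgr4, the receptor with the highest level, a mean of 53.0 FPKM over the 12 mice, differed by -0.33 in colitis (95% interval -1.24 to 0.59). The ligase Rnf43 had 6.38 to 7.15 FPKM in normal mice and 2.53 to 6.77 in colitis mice.

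Wnt target genes were lower in colitis at the unadjusted limit for 4 of 10, with a median of -1.16, and the signal transduction genes for 1 of 16, beside 15.9% of all genes. Axin2, a feedback inhibitor induced by β-catenin, had 4.63, 2.30 and 5.34 FPKM in normal mice and 0.24, 0.32 and 1.96 in colitis mice (-2.57, adjusted p = 0.116 in limma). Ascl2, a transcription factor of crypt stem cells, had 3.68, 1.76 and 1.77 FPKM against 0.05, 0.09 and 0.98 (-2.91, adjusted p = 0.119 in limma). Axin2 passed the adjusted limit in 3 of 23 alternatives and Ascl2 in 2 (lowest adjusted p = 0.0235 and 0.0447 in limma). In colitis mice receiving BBR, Axin2 had 0.39, 0.34 and 2.96 FPKM and Ascl2 0.05, 0.05 and 0.88. For Axin2, mice 2 and 3 receiving BBR stayed near the level of colitis mice 1 and 2. For Ascl2 the values of these mice all lay below the floors of their libraries, so their levels cannot be compared. In both genes the mouse numbered 4 was highest in each colitis group. The targets with the highest levels, Ccnd1 and Sox9, differed by 0.53 and -1.23 and passed neither limit. Ctnnb1, which encodes β-catenin, differed by 0.068 in colitis (95% interval -0.48 to 0.62) and Csnk1a1, a kinase that primes β-catenin for removal, by -0.26. With BBR in colitis, Cd44 was the 1 target gene past the unadjusted limit, and it was lower (-1.08, adjusted p = 0.512 in limma).

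**Figure D4:**
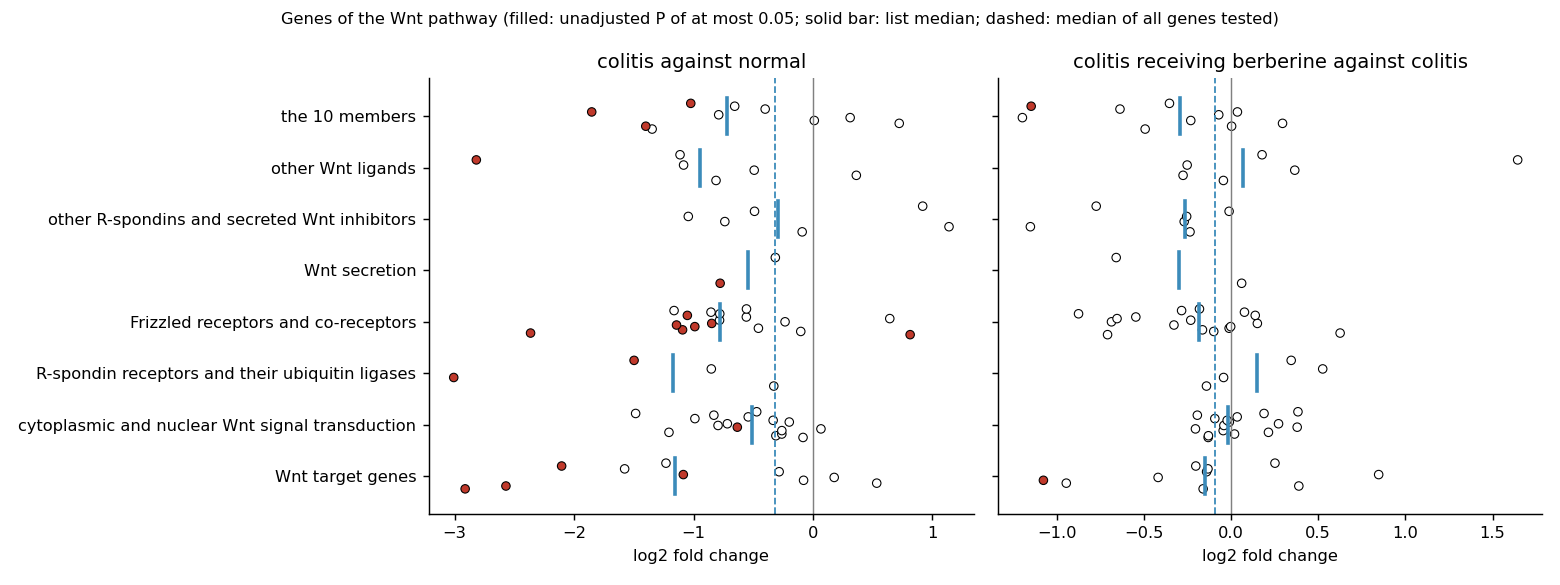
log2 fold change (horizontal axis) of each tested gene of the 10 and of 7 lists of the Wnt pathway, in colitis mice against normal mice (left) and in colitis mice receiving BBR against colitis mice (right); filled points have an unadjusted P of at most 0.05, solid bars are list medians and the dashed line is the median of all genes tested. In colitis 6 of the 7 list medians lie left of the dashed line, and with BBR the filled points are Wnt5a and Cd44, both lower.

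The profile over the 12 mice was compared with that of all 11943 genes with a mean of at least 1 FPKM, as the root mean square difference of log2 values centred on each gene's own mean. Dkk3 was closest to Col6a1 and Col6a2, chains of collagen VI, with differences of 0.18 and 0.24 beside a spread of Dkk3 itself of 1.16. These were also its closest genes after quantile normalization. Sfrp1 was closest to Crispld2 (0.26) and to the collagen gene Col3a1 (0.37), beside its own spread of 0.86. Frzb was closest to Prkd3 and Jam3 (0.21 and 0.22, own spread 1.00), Wnt2b to Adamts10 and Gask1b (0.26 and 0.27, own spread 1.09) and Wnt5a to Procr and Armh4 (0.31 and 0.34, own spread 0.88). For Wnt5b these were Rtl8c and Cib2, for Rspo3 Zfp580 and Loxl1, for Sfrp2 Ripor1 and Erf, and for Wnt4 Plk1 and Cnbd2. Rspo1 had the least close neighbours, Rdh1 and Sprr2a3, at 0.47 and 0.49 beside its own spread of 0.84. After quantile normalization both genes were kept for Dkk3 alone, 1 for 5 of the 10 genes and none for 4.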

How the data were processed

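Libraries of rectal RNA from 12 mice were made with rRNA depletion and sequenced as single-end 50-base reads. SOAPnuke filtering, Bowtie2 2.2.5 alignment and RSEM 1.2.12 quantification on mm9 were the authors' steps, per the methods and the submitters' processing notes. The deposited table holds 1 value per gene and mouse and no source used here names its unit. The values were read as FPKM, from their column sums. Values were taken as log2(FPKM + 0.1), and the 15315 genes whose mean reached 0.1 were fitted with limma 3.58.1 (4 groups, trended eBayes, Benjamini-Hochberg adjustment), after a check on simulated data. No between-mouse scaling was applied beyond the authors' own, because values read as FPKM are taken to be scaled to the library. The column sums still ran from 482194 to 765876, and other scalings were run as alternatives. Read depth was not given. The worth of 1 read was estimated from 2327 single-transcript genes of GENCODE M21. The genes described and the lists were chosen with earlier results of these data known. Genes were named by rule: all 10, genes of the other Wnt lists past the adjusted limit, the Wnt genes the study discusses, the 2 highest of each Wnt list, and the 2 closest profiles of each of the 10. Fzd1, Fzd2, Axin2, Ascl2, Cd44, Gli1, Foxl1, Pdgfra, Grem1, Dcn and the mesothelial and squamous markers were added after their values were seen. Promoters came from RefSeq, whose build differs from mm9.

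Mice of normal and normal + BBR groups share the numbers 1, 3 and 4. Deviations from the group means correlated at 0.290, 0.109 and 0.657 for these 3 pairs. Crossed, the mice numbered 1 and 3 correlated at 0.366 and 0.456, above their matched values, so only the number 4 stands out. The numbers were still read as pairs there, and a fit with the number as a block was run as an alternative. In the other comparisons fewer than 3 numbers are shared and no source says what a number marks, so the samples were not read as pairs. Nothing says that mice of 1 group came from separate litters or days. The alternatives were other pseudocounts (1 and 0.01), filters, scalings, blocks and samples, and the fit without each mouse in turn. 4 Wnt ligands and 2 inhibitors of the lists were not analysed here.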

Additional observations from a re-analysis of the deposited data

How the results depend on the processing

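Over the 3 comparisons that involve colitis, 19 of the 30 log2 fold changes of the 10 genes kept their sign in all 23 alternatives: 7 of 10 for colitis against normal, 3 of 10 for colitis mice receiving BBR against colitis mice, and 9 of 10 for colitis mice receiving BBR against normal mice. The count past the adjusted limit moved from 0 to 1 for colitis against normal with the mice numbered 4 as a block (Wnt2b) and to a range of 0 to 1 when single mice were left out. For colitis mice receiving BBR against normal mice it moved to 2 without the mice numbered 4 and to a range of 0 to 5 when single mice were left out, the 5 without colitis mouse 4 receiving BBR. In the other comparisons it stayed at 0 in all alternatives run. Over all genes tested, 165 genes passed the adjusted limit for colitis against normal and the alternatives gave 11 (without normal mouse 1) to 1412 (mice numbered 4 as a block). For colitis mice receiving BBR against normal mice the 3 genes became 0 to 2895 (without colitis mouse 4 receiving BBR), and for BBR in colitis the 0 genes became 0 to 58 (without mouse 3 receiving BBR). The 2 scalings moved the median of all genes in colitis from -0.32 to -0.049 (quantile) and 0.018 (median centring). The cause was not tested.

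With pseudocount 1, Sfrp2 with BBR in colitis was 0.052, and with pseudocount 0.01 Rspo3 in colitis was -0.00264. Quantile normalization and median centring gave 0.17 and 0.080 for Sfrp2 with BBR in colitis, and 0.42 and 0.27 for Rspo3 in colitis mice receiving BBR against normal mice. Without the mice numbered 4, Wnt2b and Frzb with BBR in colitis were -0.24 and -0.33. With the replicate number as a block, Sfrp1 in colitis was -0.098, and with BBR in colitis Wnt2b was -0.068, Sfrp2 0.058 and Frzb -0.15; no gene of the 10 passed the adjusted limit under this block in any comparison, while over all genes 734 passed it for colitis against normal. At the unadjusted limit the block gave 4 lower genes of the 10 in place of 3 for colitis against normal (Dkk3 added), 2 in place of 1 for BBR in colitis (Sfrp1), 6 in place of 5 for colitis mice receiving BBR against normal mice (Sfrp1) and 1 in place of 0 for the interaction (Sfrp1). For BBR in normal mice the block changed no call of the 10 at that limit. The pairing check gave a mean correlation of 0.34 for equal numbers and -0.10 for different ones. For equal numbers it was 0.50 for the number 4 and 0.21 for the rest. The mean of -0.10 includes pairs of a mouse numbered 4 with another mouse, nearly all of them negative. Among mice numbered 1 to 3, most pairs with different numbers were positive and some were negative. The highest, 0.456, lay above every pair with equal numbers among these mice. These means therefore do not show that an equal number other than 4 marks a likeness. When single mice were left out, the values for colitis against normal ranged from -1.11 to 0.10 for Wnt4, -0.39 to 0.72 for Rspo3 and -0.29 to 1.12 for Sfrp1. For BBR in colitis they ranged from -0.60 to 0.58 for Wnt2b, -1.39 to 0.075 for Wnt4, -0.21 to 0.62 for Rspo1, -0.94 to 0.39 for Rspo3, -0.89 to 0.52 for Sfrp2, -0.60 to 0.35 for Frzb and -1.27 to 0.11 for Dkk3. For colitis mice receiving BBR against normal mice Rspo3 ranged from -0.76 to 0.40. Rspo1 and Wnt5b have no value under the filter of a mean of at least 1 FPKM. The interaction has no value in fits of only the groups compared. Where a mouse was left out, its group kept 2 mice.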
